A study of Mus musculus with 4 samples.

Results

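The class I antigen presentation genes described here are 9 genes of one pathway: the heavy chains H2-K1 and H2-D1, the light chain B2m, the peptide transporter subunits Tap1 and Tap2, the peptide-loading chaperone Tapbp, and the interferon-inducible proteasome subunits Psmb8, Psmb9 and Psmb10. They were chosen by name, as the rows of the deposited count table that carry these symbols, and all 9 were found among the 13192 genes listed. Raw read counts came from 4 RNA-seq libraries of mouse primary cardiac fibroblasts, labelled as heart tissue, WT genotype and neonatal batch. 2 libraries came from cells given shNT, a non-targeting short hairpin, and 2 from cells given shNr4a3, a hairpin against the orphan nuclear receptor Nr4a3, all at day 7. The control cells thus carried a hairpin too, and the titles also hold the letters P3, whose meaning is not stated. The series asks how loss of Nr4a3 bears on the conversion of fibroblasts into induced cardiomyocytes. The sources used here do not give how the hairpins were delivered. Nor does a label say whether replicates came from separate cultures, and p-values then measure only the spread between these libraries, which may be technical.

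Class I molecules display short peptides from proteins made inside the cell to CD8 T cells. The proteasome cuts the peptides, the TAP transporter carries them into the endoplasmic reticulum, tapasin holds an empty class I molecule beside the transporter, and a heavy chain paired with beta-2 microglobulin takes the loaded peptide to the surface. Interferon gamma is a known inducer of the whole set, partly through the transactivator NLRC5, and fibroblasts express class I molecules at rest.

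Library totals ran from 34068241 to 35111013 counts, and 13160 genes passed the filter on low counts, all 9 class I genes among them. Nr4a3 was read 60 and 29 times with shNT against 4 and 8 times with shNr4a3, a log2 fold change of -2.98 ± 0.67 (SE; edgeR quasi-likelihood adjusted p = 3.22e-04). All 10 fibroblast markers were listed with counts in every library, and their summed level was 11019 to 11327 CPM (counts per library total scaled by TMM) with shNT and 8596 to 8626 with shNr4a3. By edgeR 5 of them were higher and 4 lower, beside 27.6% and 27.9% of all genes tested. Tcf21, a transcription factor of epicardial and cardiac fibroblast lineages, fell by 1.91 on the log2 scale and Col1a1, a collagen I chain, fell by 1.15, while Pdgfra, the PDGF receptor alpha, rose by 0.73 and Postn, periostin, rose by 0.59 (these last named after their values were seen). Col1a2 and Thy1 were also lower, at -0.84 and -0.69. The calls of Col3a1 and Dcn, which were higher, were lost without either shNr4a3 library, with log2 fold changes of 0.19 to 0.20 and 0.16. The 12 listed of 13 endothelial markers summed to 360 to 378 CPM with shNT and 177 to 185 with shNr4a3, and all 11 mesothelial markers to 643 to 669 and 155 to 157 CPM. Of 23 leukocyte markers, which would mark cells rich in class I molecules, 7 were listed. They summed to 61.4 and 61.8 CPM with shNT and 101 and 99.8 with shNr4a3. Lyz2 alone was at 40.3 and 42.2 CPM with shNT and 91.0 and 87.9 with shNr4a3. Ptprc, Cd68, Cd14, Csf1r and Laptm5 went the other way, with both shNr4a3 libraries below both controls, and Coro1a overlapped. No listed marker was at 0 in any library.

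The promoter windows of both heavy chains, of B2m and of Tap1 are shown because these genes, which share promoter motifs, moved in opposite directions. Sequences are RefSeq's, on GRCm38.p6, from 250 bases before the annotated start to 50 after it, 5′ to 3′ on the gene's strand. Capitals mark matches, on either strand, to the interferon regulatory factor core AANNGAAA, the kappa B motif, the cyclic AMP response element core TGACG and the CCAAT box. The H2-K1 window is chr17:34000298-34000597 on the minus strand, that of H2-D1 chr17:35262844-35263143 on the plus strand, that of B2m chr2:122147437-122147736 on the plus strand, and that of Tap1 chr17:34187306-34187605 on the plus strand.
H2-K1: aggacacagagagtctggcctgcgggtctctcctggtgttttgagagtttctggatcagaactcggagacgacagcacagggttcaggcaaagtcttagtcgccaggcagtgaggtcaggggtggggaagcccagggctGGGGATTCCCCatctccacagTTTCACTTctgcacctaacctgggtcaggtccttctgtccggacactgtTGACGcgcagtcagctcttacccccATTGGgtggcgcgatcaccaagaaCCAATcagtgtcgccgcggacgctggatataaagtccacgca
H2-D1: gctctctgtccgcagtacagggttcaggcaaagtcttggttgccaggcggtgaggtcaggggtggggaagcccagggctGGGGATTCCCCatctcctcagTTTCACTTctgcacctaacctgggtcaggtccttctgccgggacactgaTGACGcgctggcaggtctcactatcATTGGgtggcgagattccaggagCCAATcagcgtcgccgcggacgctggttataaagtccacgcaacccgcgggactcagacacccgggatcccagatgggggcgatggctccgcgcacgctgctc
B2m: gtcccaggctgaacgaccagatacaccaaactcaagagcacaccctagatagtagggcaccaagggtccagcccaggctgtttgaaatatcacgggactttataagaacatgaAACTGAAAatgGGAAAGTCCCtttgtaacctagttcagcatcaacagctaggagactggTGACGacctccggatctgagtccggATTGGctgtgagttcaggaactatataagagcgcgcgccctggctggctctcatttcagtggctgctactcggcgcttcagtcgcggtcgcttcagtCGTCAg
Tap1: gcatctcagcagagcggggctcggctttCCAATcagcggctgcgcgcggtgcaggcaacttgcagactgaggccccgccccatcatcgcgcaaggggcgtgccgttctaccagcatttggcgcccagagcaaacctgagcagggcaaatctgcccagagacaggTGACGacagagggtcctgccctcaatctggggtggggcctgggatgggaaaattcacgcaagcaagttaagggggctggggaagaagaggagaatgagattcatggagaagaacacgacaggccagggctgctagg
In H2-K1 the kappa B match lay at -111 to -101, the interferon regulatory factor core at -90 to -83 and the TGACG core at -41 to -37, counted from the annotated start as 0. In H2-D1 each of these matches lay 60 bases further upstream of its own annotated start, and where transcription begins was not measured. Both heavy chain genes thus held these elements in the same order and spacing. B2m held them in another order, with the interferon regulatory factor core at -137 to -130, a kappa B match at -126 to -117 and TGACG at -78 to -74. It shared with both heavy chains a TGACG followed after 20 bases by ATTGG, an arrangement found in 0.0944% of all 32851 windows of this length. The spacing counted was the one these 3 genes have, and their own windows are included, so the share is only a description. Tap1 held a TGACG core at -86 to -82 and a CCAAT box without that spacing, and neither of the other motifs matched in its window.

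Windows were found for 8 of the 9 genes, all but Tap2. TGACG was in 5 of them, against 20.8% of all windows, and CCAAT in 6, against 37.4%. The windows of Tap1 and Psmb9 overlap. Their TGACG is the same stretch read on opposite strands, and so is their CCAAT box. The interferon regulatory factor core was in 3, both heavy chains and B2m (23.9% of all windows), and the kappa B motif in the same 3 (8.46%). The letters AAAGGTCA, the monomer motif of NR4A receptors, were in 0 of the 8 windows and in 1.51% of all windows. These are matches of letters in a short window, and binding was not measured.

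The class I genes divided into 4 that were lower and 5 that were higher with shNr4a3, and each step with more than 1 of these genes was divided. Both heavy chains were lower and the light chain was higher, Tap2 was lower and Tap1 higher, and Psmb8 was lower while Psmb9 and Psmb10 were higher. Tapbp, the 1 gene of its step, was higher. All 9 passed an adjusted p of 0.05 in edgeR's quasi-likelihood test over all genes tested, of which 27.6% were higher, 27.9% lower and 55.5% either. The libraries of the groups did not overlap for any of the 9, against 77.2% of all genes tested. The median log2 fold change of the 9 was 0.23, beside 0.00 for all genes. Most genes of the table passed, so a call alone sets no gene apart, and the size of each change is given below. In bulk RNA, fewer cells of a type and less RNA per cell cannot be told apart.

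**Figure D1:**
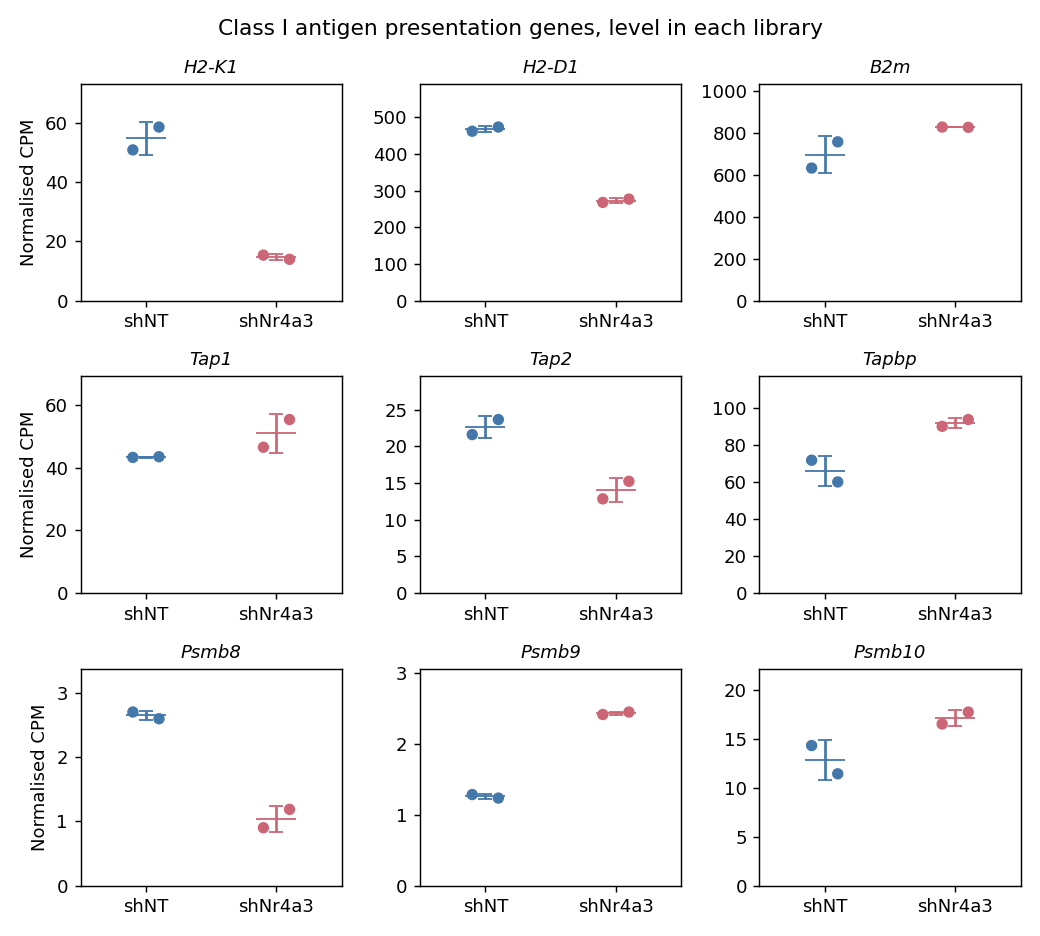
Level of each class I antigen presentation gene in every library, in TMM-scaled CPM on a linear axis from 0. Points are libraries (2 for each hairpin), horizontal lines are means and bars the SD; the points of the groups are apart in all 9 panels, below the control in H2-K1, H2-D1, Tap2 and Psmb8 and above it in the other 5.

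H2-K1, one of the classical heavy chains that present peptides to CD8 T cells, changed most of the 9. It had 1662 and 1991 counts with shNT and 547 and 507 with shNr4a3. Both knockdown libraries were thus far below both controls. The mean level was 54.8 ± 5.46 CPM (SD, n = 2) with shNT and 14.7 ± 0.995 CPM (SD, n = 2) with shNr4a3, 3.74-fold lower. The log2 fold change was -1.90 ± 0.10 (SE), with an edgeR adjusted p of 1.25e-16. The gene lies at chr17:33996017-34000347 on the minus strand of GRCm38, and none of the 150-base stretches of its exons occurred in another gene's exons.

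H2-D1, the other classical heavy chain measured, had 15063 and 16055 counts with shNT and 9520 and 10039 with shNr4a3. It was lower in both knockdown libraries, and the groups did not overlap. The mean fell from 468 ± 8.05 to 272 ± 6.38 CPM (SD, n = 2 each), 1.72-fold, with a log2 fold change of -0.78 ± 0.05 (SE; edgeR adjusted p = 1.23e-13). The gene spans chr17:35262730-35267499 on the plus strand, and 1.35% of its 150-base exon stretches also occurred in another gene, H2-Q1. H2-K1 fell more than H2-D1, and the ratio of H2-D1 to H2-K1 counts was 9.06 and 8.06 with shNT and 17.4 and 19.8 with shNr4a3. Ratios of counts are given here as descriptions, with no test.

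Since class I heavy chains are close copies of each other, the counts of all 12 listed heavy chain genes were also added before testing. The sum does not depend on how reads were divided among these 12. Reads given to copies outside the 12 are not in it. H2-Q1 shares 150-base exon stretches with H2-Q2, and H2-Q6 with H2-Q7, both outside the sum. The sum was 18533 and 19812 counts with shNT and 11638 and 12068 with shNr4a3. This was a log2 fold change of -0.80 (edgeR adjusted p = 3.20e-14). H2-D1 alone supplied 81.3% and 81.0% of the sum with shNT and 81.8% and 83.2% with shNr4a3, so the sum mostly followed H2-D1.

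B2m, the light chain shared by classical and most class I-like molecules, went the other way from the heavy chains. It had 20606 and 25673 counts with shNT and 29405 and 29948 with shNr4a3. The shNr4a3 libraries were nearly equal and both above the controls, which differed from each other. The mean was 694 ± 88.3 CPM with shNT and 827 ± 0.954 CPM with shNr4a3 (SD, n = 2 each), a log2 fold change of 0.25 ± 0.06 (SE; edgeR adjusted p = 0.00113). Its size depended on which control was kept: the log2 fold change was 0.13 without shNT replicate 1 and 0.39 without shNT replicate 2. B2m lies outside the chromosome 17 complex, at chr2:122147686-122153083 on the plus strand.

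The ratio of heavy to light chain transcripts was lower in both knockdown libraries. Summed H2-K1 and H2-D1 counts were 0.812 and 0.703 of the B2m count with shNT and 0.342 and 0.352 with shNr4a3. Divided by the exon length of each gene, the same ratio was 0.267 and 0.231 with shNT and 0.113 and 0.117 with shNr4a3. On both scales the heavy chain transcripts were the minority in every library, and more so after knockdown.

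Tap1 and Tap2 encode the subunits of one transporter, and their transcripts diverged. Tap2 had 705 and 803 counts with shNT and 457 and 553 with shNr4a3, and both knockdown libraries were lower. Its mean was 22.6 ± 1.45 CPM with shNT and 14.1 ± 1.69 CPM with shNr4a3 (SD, n = 2 each), a log2 fold change of -0.69 ± 0.12 (SE; edgeR adjusted p = 1.84e-05). Tap1 had 1410 and 1474 counts with shNT and 1652 and 2005 with shNr4a3. The controls agreed closely and the first knockdown library stood only a little above them. Its mean was 43.3 ± 0.152 CPM with shNT and 50.9 ± 6.24 CPM with shNr4a3, a log2 fold change of 0.23 ± 0.09 (SE; edgeR adjusted p = 0.0263). That call rested on shNr4a3 replicate 2, without which the log2 fold change was 0.10 (edgeR adjusted p = 0.548), and DESeq2 gave an adjusted p of 0.0704. The ratio of Tap1 to Tap2 counts was 2 and 1.84 with shNT and 3.61 and 3.63 with shNr4a3.

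Tapbp, tapasin, which bridges the transporter and the empty class I molecule, had 2337 and 2034 counts with shNT and 3197 and 3394 with shNr4a3. Both knockdown libraries were above both controls. Its mean rose from 65.8 ± 8.27 to 91.8 ± 2.59 CPM (SD, n = 2 each), a log2 fold change of 0.48 ± 0.08 (SE; edgeR adjusted p = 5.60e-06). The gene spans chr17:33915899-33929292 on the plus strand and shares 149 exon bases with Zbtb22, a zinc finger gene on the same strand whose own log2 fold change was 0.36 ± 0.11 (SE; edgeR adjusted p = 0.00816). Tapbp also overlaps 904 exon bases of a gene on the opposite strand, and the sources used here do not give the strand setting of the authors' counting.

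The inducible proteasome subunits replace the constitutive catalytic subunits in the immunoproteasome, and 2 of the 3 were the least counted of the 9 genes. Psmb8, which takes the place of Psmb5, had 88 counts in each shNT library and 32 and 43 with shNr4a3. Both knockdown libraries were below the controls, with a mean of 2.65 ± 0.0738 CPM against 1.04 ± 0.202 CPM (SD, n = 2 each). This was 2.53-fold lower, a log2 fold change of -1.34 ± 0.37 (SE; edgeR adjusted p = 0.00294). Psmb9, which takes the place of Psmb6, had 42 counts in each shNT library and 86 and 89 with shNr4a3. Libraries of a group were nearly equal, and the mean was 1.26 ± 0.0352 CPM with shNT and 2.44 ± 0.0247 CPM with shNr4a3. The log2 fold change was 0.95 ± 0.36 (SE; edgeR adjusted p = 0.0267), and it was 0.92 to 0.98 without each library in turn, when the edgeR adjusted p was 0.0542 to 0.110.

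Psmb10, which takes the place of Psmb7 and lies at chr8:105935735-105938444 on the minus strand, had 466 and 387 counts with shNT and 586 and 642 with shNr4a3. Both knockdown libraries were higher, and the controls differed more between themselves than the knockdown libraries did. The mean was 12.8 ± 2.04 CPM with shNT and 17.1 ± 0.862 CPM with shNr4a3 (SD, n = 2 each), a log2 fold change of 0.41 ± 0.14 (SE; edgeR adjusted p = 0.0102). Without shNT replicate 2 the log2 fold change was 0.26 (edgeR adjusted p = 0.101), without shNr4a3 replicate 2 it was 0.36 (edgeR adjusted p = 0.112), and without shNT replicate 1 it was 0.59. Psmb8 counts were 2.10 times those of Psmb9 in both shNT libraries and 0.372 and 0.483 times with shNr4a3, so the order of the pair turned over.

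All 3 constitutive catalytic subunits were higher with shNr4a3, beside 27.6% of all genes tested. Psmb5, the chymotrypsin-like subunit, rose by 0.46 ± 0.09 on the log2 scale (SE; edgeR adjusted p = 5.13e-05) and Psmb7, the trypsin-like subunit, by 0.78 ± 0.07 (edgeR adjusted p = 1.52e-10). Psmb6, the caspase-like subunit, rose by 0.23 ± 0.07 (edgeR adjusted p = 0.00345), a call lost without shNr4a3 replicate 1 (0.24, edgeR adjusted p = 0.0604) or replicate 2 (0.22, edgeR adjusted p = 0.0904). Read per base of exon, Psmb8 made up 2.01% and 1.65% of Psmb8 plus Psmb5 with shNT and 0.450% and 0.604% with shNr4a3. The exact Clopper-Pearson 95% intervals, which cover counting error only, were 1.60% to 2.48% and 1.32% to 2.03% with shNT, and 0.307% to 0.636% and 0.437% to 0.816% with shNr4a3. The inducible share of this pair was lower in both knockdown libraries, with no overlap of the intervals.

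The other pairs moved differently. Psmb9 made up 0.676% and 0.665% of Psmb9 plus Psmb6 with shNT and 1.10% in each shNr4a3 library, so its share was higher. Its 95% intervals overlapped between the groups, unlike those of Psmb8. They were 0.487% to 0.914% and 0.480% to 0.899% with shNT, and 0.877% to 1.35% and 0.881% to 1.35% with shNr4a3. Psmb10 made up 28.5% and 21.2% of Psmb10 plus Psmb7 with shNT and 19.3% and 21.2% with shNr4a3. Its share did not separate the groups beyond the spread of the controls, and both Psmb10 and Psmb7 rose. With 2 libraries against 2 an exact permutation test cannot go below p = 0.333, so the shares were not tested. In every library Psmb5 and Psmb6 exceeded their inducible counterparts by far. Per base of exon, Psmb10 was the one inducible subunit with a share above a few per cent. That contrast depends on the exon lengths used. Without division by length the mean shares with shNT were 6.54% for Psmb8 and 14.2% for Psmb10, and with shNr4a3 1.95% and 11.2%.

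**Figure D2:**
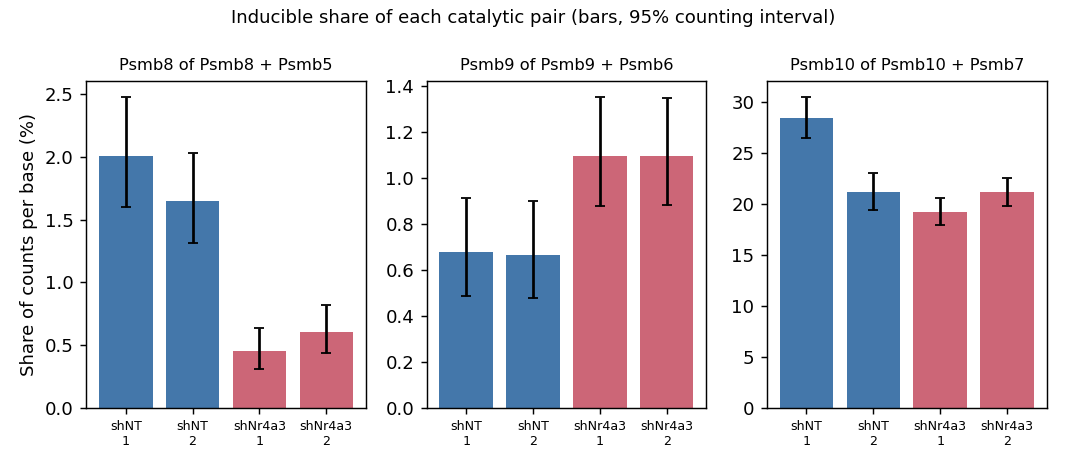
Share of each catalytic pair taken by the interferon-inducible subunit, in per cent of counts per exon base, for each library. Bars start at 0 and lines are 95% Clopper-Pearson intervals for counting error. The Psmb8 share is lower in both shNr4a3 libraries. The Psmb9 share is higher in both, with intervals that overlap those of the controls. The Psmb10 share of shNT replicate 2 equals that of shNr4a3 replicate 2 at 21.2%.

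Psmb9, Tap1, Psmb8 and Tap2 lie side by side within 34.3 kb of chromosome 17, from 34181987 to 34216321 on GRCm38, and the group of 4 split in the middle. Psmb9 (chr17:34181987-34187764, minus strand) and Tap1 (chr17:34187553-34197225, plus strand) start head to head with 212 exon bases in common, and both were higher. Psmb8 (chr17:34197721-34201454, plus strand) and Tap2 (chr17:34203527-34216321, plus strand) follow downstream, and both were lower. The common bases of Psmb9 and Tap1 are on opposite strands, so without the strand setting their reads cannot be fully told apart. Psmb8 and Tap2 also overlap exons of unlisted antisense genes, by 498 and 698 bases.

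**Figure D3:**
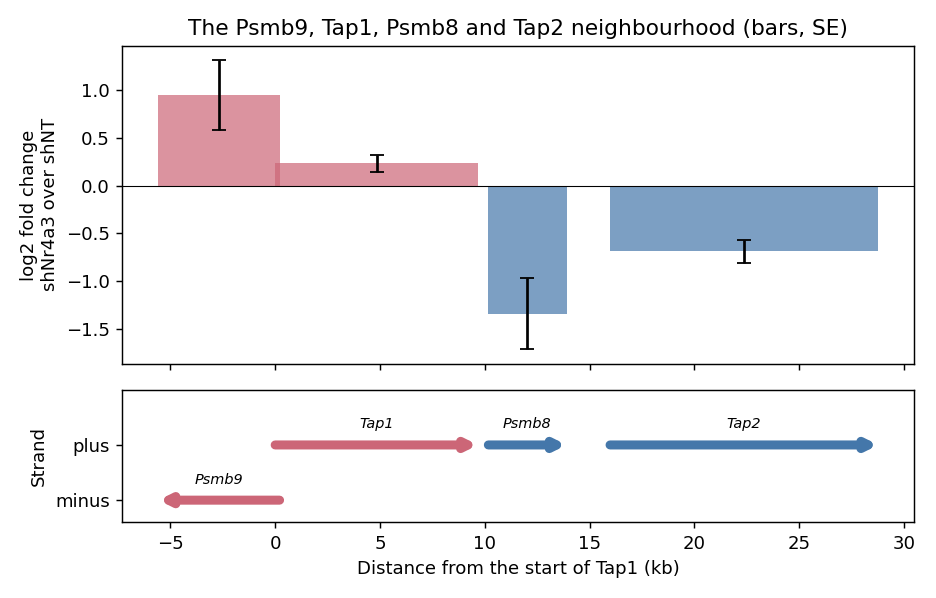
The 4 neighbouring class I genes of chromosome 17, drawn to scale by distance from the start of Tap1 in kb. The upper panel gives each gene's log2 fold change with its SE over the width of the gene, and the lower panel its strand; Psmb9 (0.95) and Tap1 (0.23) are above 0, Psmb8 (-1.34) and Tap2 (-0.69) below.

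Levels of different genes can be compared only per length, here as CPM per kb of all annotated exon bases, which include retained introns and so understate genes with such transcripts. In the shNT libraries the order was B2m (mean 807 CPM per kb), H2-D1 (181), H2-K1 (18.7), Tapbp (18.1), Tap1 (7.92), Psmb10 (7.54), Tap2 (5.99), Psmb8 (0.783) and Psmb9 (0.345). H2-K1 and Tapbp overlapped in that order, as did Tap1 and Psmb10. In the shNr4a3 libraries H2-K1, at 4.998 CPM per kb, stood below Tapbp at 25.3, Psmb10 at 10.0 and Tap1 at 9.29. Psmb9 at 0.666 stood above Psmb8 at 0.309, and Tap2 was at 3.72. B2m at 961 and H2-D1 at 106 kept the top places. Length-scaled levels thus spanned a wide range within one pathway, with the light chain far above both heavy chains and Psmb8 and Psmb9 at the bottom.

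**Figure D4:**
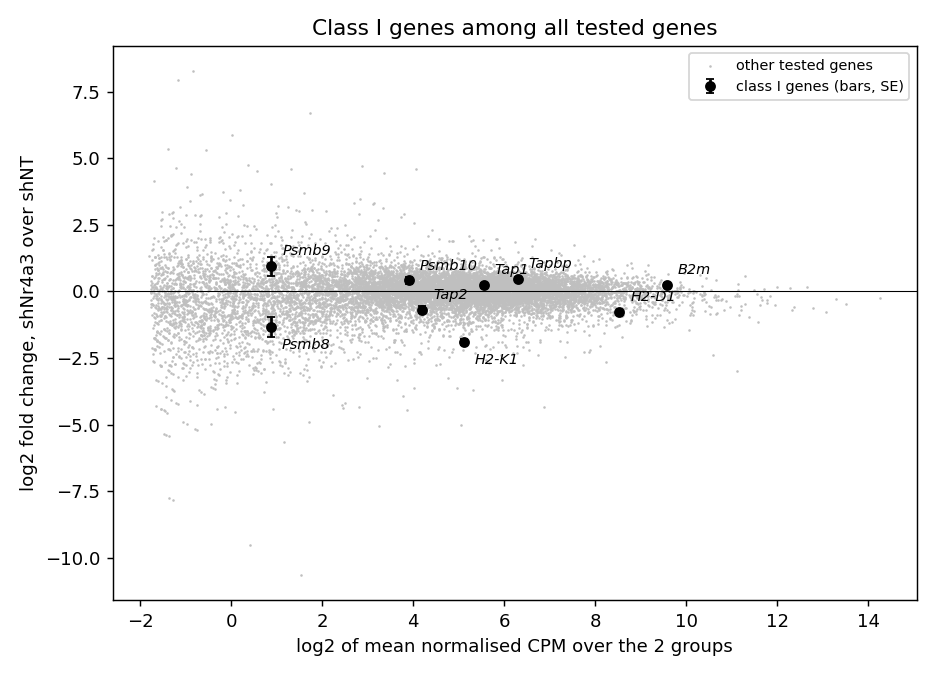
Log2 fold change of shNr4a3 over shNT against the log2 of the mean level in CPM for all 13160 tested genes (grey) and the 9 class I genes (black, bars SE). H2-K1 lies at -1.90, Psmb8 and Psmb9 lie in the low range where the spread of folds is wide, and B2m and H2-D1 are among the abundant genes.

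The rest of the pathway was read from 8 gene lists of 102 genes, of which 83 were listed and 82 tested. Of these 16 were higher and 23 lower, 47.6% in all, with a median log2 fold change of -0.11, beside 55.5% and 0.00 for all genes tested. No test of a list was made, and the genes below are given for their own changes.

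Among the other class I heavy chains, 10 of 19 were listed and 9 tested, with a median of -0.25. By edgeR 0 were higher and 2 lower, beside 27.6% and 27.9% of all genes tested. Limma-voom and DESeq2 also gave 0 higher, and 0 were higher at an unadjusted edgeR p under 0.05. H2-M3, which presents formylated peptides, had 89 and 125 counts with shNT and 44 and 50 with shNr4a3, a log2 fold change of -1.29 ± 0.33 (SE; edgeR adjusted p = 0.00142). H2-T22, a ligand of some gamma delta T cells, had a log2 fold change of -0.39 ± 0.16 (edgeR adjusted p = 0.0467). That call was lost with DESeq2, with library totals in place of TMM scaling, without shNT replicate 1 (-0.19) and without shNr4a3 replicate 2 (-0.25), and 22.3% of the gene's 150-base exon stretches occur in another gene. H2-T10, its close copy, was at -0.25 (edgeR adjusted p = 0.0560). It passed as lower with limma-voom (adjusted p = 0.0496) and with the stricter filter (edgeR adjusted p = 0.0455). H2-Q1, H2-Q4, H2-T23, H2-T24 and H2-M5 had log2 fold changes of -0.25, -0.33, -0.12, -0.98 and -0.11, and H2-Q6 of 0.77, none past the threshold.

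Class I-like proteins share the class I fold but mostly serve other ends. Of these, 3 of 5 tested were lower and none was higher, beside 27.9% and 27.6% of all genes tested. Hfe, a regulator of iron uptake, had 185 and 122 counts with shNT and 41 and 51 with shNr4a3, a log2 fold change of -1.85 ± 0.31 (SE; edgeR adjusted p = 6.23e-06). Procr, the endothelial protein C receptor, had 1575 and 1645 counts against 731 and 790, a log2 fold change of -1.19 ± 0.09 (edgeR adjusted p = 1.74e-12). Fcgrt, the neonatal Fc receptor heavy chain, was lower by less, at -0.40 ± 0.07 (edgeR adjusted p = 7.01e-06). Mr1 and Cd1d1, which present metabolites and lipids, were at 0.02 and -0.01 and did not pass. Of these proteins Hfe, Fcgrt, Mr1 and Cd1d1 pair with B2m, and Procr does not.

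**Figure D5:**
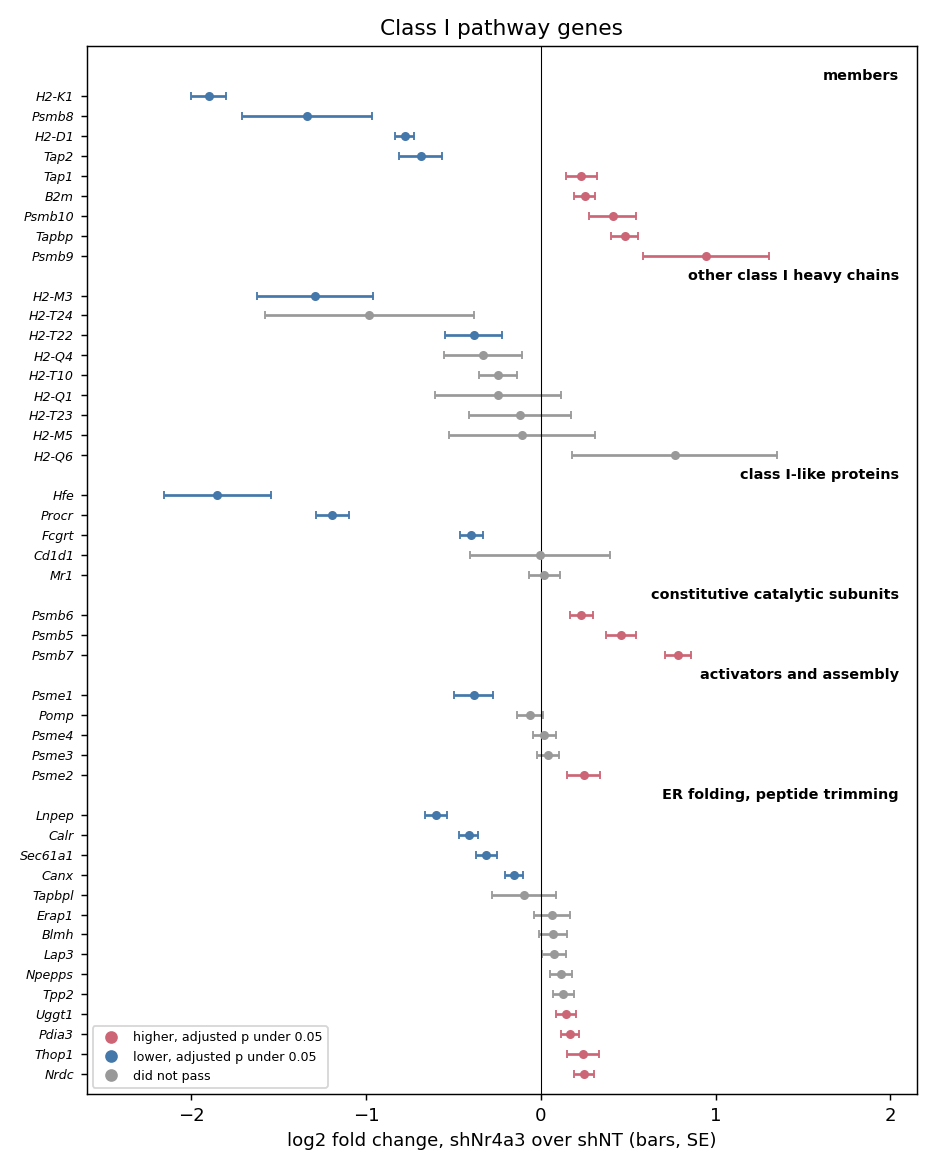
Log2 fold change of shNr4a3 over shNT with its SE for the 9 class I genes and the tested genes of 5 further lists of the pathway. Red and blue mark genes higher and lower at an edgeR adjusted p under 0.05 and grey those that did not pass; the constitutive catalytic subunits are all above 0, and the lowest values are those of H2-K1 (-1.90) and Hfe (-1.85).

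Among 14 folding and peptide-trimming genes of the endoplasmic reticulum and cytosol, 4 were higher and 4 lower. These counts stand beside 27.6% and 27.9% of all genes tested. Calr, calreticulin, and Canx, calnexin, which fold class I heavy chains, were lower, by log2 fold changes of -0.41 ± 0.05 (SE; edgeR adjusted p = 7.72e-08) and -0.16 ± 0.05 (edgeR adjusted p = 0.0109). Pdia3, the thiol oxidoreductase of the loading complex, was higher at 0.17 ± 0.05 (edgeR adjusted p = 0.00617). Lnpep, an aminopeptidase of endosomes, was the most reduced, at -0.60 ± 0.06 (edgeR adjusted p = 1.82e-09), and Sec61a1, the translocon channel, was at -0.31. Nrdc at 0.25, Thop1 at 0.24 and Uggt1 at 0.14 were the other higher genes, peptidases in the case of Nrdc and Thop1 and a glycoprotein folding sensor in that of Uggt1. Erap1, which trims peptides for class I, did not pass, at 0.07 (edgeR adjusted p = 0.620). Without shNr4a3 replicate 1 the calls of Canx (-0.17), Pdia3 (0.15), Nrdc (0.22), Thop1 (0.16) and Uggt1 (0.09) were lost, and without shNr4a3 replicate 2 those of Canx (-0.14), Pdia3 (0.18) and Uggt1 (0.20). The call of Thop1 was also lost without shNT replicate 2 (0.17), and Canx was at -0.04 and not past the threshold with library totals in place of TMM scaling. DESeq2 gave adjusted p-values of 0.0700 for Thop1 and 0.0690 for Uggt1, and Uggt1 was also lost with upper-quartile scaling, the stricter filter and the replicate block.

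Of the proteasome activators, Psme1 and Psme2, which form one ring on the proteasome, also split. Psme1 had a log2 fold change of -0.38 ± 0.11 (SE; edgeR adjusted p = 0.00356) and Psme2 of 0.24 ± 0.09 (edgeR adjusted p = 0.0248). Without shNr4a3 replicate 2 these were -0.22 and 0.18 and neither passed, and the Psme2 call was also lost with DESeq2 and without shNT replicate 2. Psme3, Psme4 and the assembly factor Pomp were at 0.04, 0.02 and -0.06 and did not pass.

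Of 27 transcriptional and signalling regulators of class I genes, 2 were higher and 11 lower, beside 27.6% and 27.9% of all genes tested. The median log2 fold change of the 27 was -0.16. These counts depended on the scaling. With library totals in place of TMM, Creb1 (0.22), Jak2 (0.20), Nfya (0.18) and Rfxap (0.33) also passed as higher. Irf2 (-0.13), Rela (-0.10) and Usp18 (-0.45) then no longer passed as lower. DESeq2 gave adjusted p-values of 0.0695 for Irf2 and 0.0937 for Usp18. Tyk2, a kinase of the type I interferon receptor, had 1677 and 1651 counts with shNT and 908 and 867 with shNr4a3, a log2 fold change of -1.02 ± 0.09 (SE; edgeR adjusted p = 4.13e-11). Stat3 was at -0.57 ± 0.06, Ifnar1, a chain of the type I interferon receptor, at -0.52 ± 0.07, and the kinase Jak1 at -0.39 ± 0.06, with edgeR adjusted p-values of 1.19e-09, 1.23e-07 and 1.23e-06. The higher genes were Nfyb, a subunit of the factor that binds CCAAT boxes, at 0.87 ± 0.10 (edgeR adjusted p = 3.41e-09), and Nfkb1 at 0.29 ± 0.07 (edgeR adjusted p = 5.28e-04). Nlrc5, the class I transactivator, named after its values were seen, had 239 and 243 counts with shNT and 146 and 197 with shNr4a3. Its log2 fold change was -0.60 ± 0.20 (edgeR adjusted p = 0.0115), and -0.42 without shNr4a3 replicate 1 (edgeR adjusted p = 0.193). Irf1, which acts downstream of interferon gamma and was likewise named after its values were seen, was at 0.14 and did not pass (edgeR adjusted p = 0.352).

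Among 15 tested interferon gamma-induced GTPases and chemokines, 6 were higher and 1 lower, beside 27.6% and 27.9% of all genes tested. The median of the 15 was -0.12. Irgm1, an immunity-related GTPase, had 5463 and 5529 counts with shNT and 13255 and 14023 with shNr4a3, a log2 fold change of 1.20 ± 0.06 (SE; edgeR adjusted p = 8.37e-18). The guanylate-binding proteins Gbp2, Gbp3 and Gbp7 were at 1.10 ± 0.12, 1.40 ± 0.20 and 0.70 ± 0.13, with edgeR adjusted p-values of 2.24e-09, 6.28e-07 and 4.01e-05. Ifi47, another such GTPase, was lower at -0.43 ± 0.10 (edgeR adjusted p = 4.41e-04). Genes known to be induced by the same cytokine thus stood on both sides of 0. A part of interferon in the class I results was not tested.

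Class I levels differ between cell types, and markers of other cells moved with the hairpin. The endothelial markers were lower for 10 of 12 tested genes and the mesothelial markers for 11 of 11, beside 27.9% of all genes tested. Among them were Cdh5, the endothelial cadherin, at -2.04 and Msln, mesothelin, at -4.33 on the log2 scale. Wt1, at -0.33 the mesothelial marker nearest to 0 (edgeR adjusted p = 0.0489), was lost with DESeq2, library totals and the replicate block, and was -0.26 without shNT replicate 1 and -0.34 and -0.31 without shNr4a3 replicates 1 and 2, not past the threshold in any of these. Of 6 tested leukocyte markers Cd14, Cd68 and Laptm5 were lower, at -1.58, -1.09 and -1.58, and Lyz2 was higher, at 1.12, and supplied most of their summed level. The Laptm5 call was lost with DESeq2 (adjusted p = 0.0518) and when any of 3 libraries was left out: -1.07 without shNT replicate 1, and -1.71 and -1.46 without shNr4a3 replicates 1 and 2. Ptprc, the defining leukocyte marker CD45, had 8 and 36 counts with shNT and 6 in each shNr4a3 library, too few to be tested. The part of these cells in the class I results was not tested.

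The genes outside the lists whose profile over the 4 libraries was closest to the mean class I profile, by Euclidean distance of centred log2 CPM, were Rhog (0.00716), Klhl26 (0.0190), Selenop (0.0202), Snx19 (0.0202) and Zfp598 (0.0247). Their log2 fold changes were -0.26 to -0.28. The mean profile averages genes of both directions and is not the profile of any 1 of them.

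In the authors' deposited table of this comparison, H2-K1 was the 1 class I gene of 9 marked as down, with a log2 fold change of -1.91 and an adjusted p of 4.11e-29. H2-D1 was given a log2 fold change of -0.78 and an adjusted p of 4.75e-06 in the authors' deposited table and was marked non-significant, as were the other 7. B2m, with a log2 fold change of 0.25 and an SE of 0.07, was given an adjusted p of 1 in the authors' deposited table, so its p-values do not test against a change of 0 and are not comparable with those above. The authors' deposited table marked 704 genes as down and 281 as up.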

How the data were processed

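RNA was extracted with TRIzol, depleted of ribosomal RNA and read as 150-base pairs, per the labels' protocols. Trimmomatic 0.36, Subread 1.5.1, featureCounts, SAMtools and mm10 are named in the submitters' processing notes, without roles. The authors deposited raw counts per gene, FPKM values, a mean normalised signal, log2 fold changes, a score (test statistic) and p-values. The counts were tested here with edgeR 4.0.16 in R 4.3.3 (TMM factors, default filter, robust quasi-likelihood F test, Benjamini-Hochberg adjustment over all genes, threshold 0.05). SE is the absolute log2 fold change over the square root of F. Alternatives used limma 3.58.1, DESeq2 1.42.0, other scalings and filters, a minimum log2 fold of 0.5, a replicate block, and each library left out. Code was tested on simulated data. Positions and exon lengths came from GENCODE M21. All class I genes were named, and every tested gene of pathway lists with at most 10 tested (class II genes in the closing section). Otherwise up to 4 were named in each direction by smallest p, and up to 4 of each marker list. Erap1, Wt1, Col3a1, Dcn, Ptprc, Csf1r and Coro1a were named outside this rule. So were Irf2, Rela, Usp18, Creb1, Jak2, Nfya and Rfxap, whose calls differed by setting, and other exceptions are stated. The kappa B motif was searched in its degenerate consensus form on both strands. The members and lists were chosen with earlier results of these data known.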

Additional observations from a re-analysis of the deposited data

How the results depend on the processing

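Over 14 alternatives, 111 of the 126 results for single class I genes kept their direction and side of the threshold, 15 fell short of it and 0 reversed. H2-K1 (-1.997 to -1.79), H2-D1 (-0.80 to -0.67), Psmb8 (-1.55 to -1.16) and the heavy chain sum (-0.82 to -0.69) passed under every one. The number of higher class I genes was 3 with DESeq2, 2 to 4 when each library was left out, and 0 when edgeR tested against a minimum log2 fold of 0.5, where 1 had an unadjusted p under 0.05. Under that minimum 3 class I genes stayed lower, 750 of all genes were higher and 1351 lower, and 7 pathway genes were higher and 4 lower. Without division by exon length the inducible shares were 6.54% and 1.95% for Psmb8 (shNT, then shNr4a3), 1.30% and 2.12% for Psmb9, and 14.2% and 11.2% for Psmb10. Library totals in place of TMM moved the median of all genes by 0.113 and gave 24 higher and 17 lower pathway genes. With the replicate block, 5 class I genes were higher and 4 lower, the heavy chain sum was -0.80, and Uggt1, H2-DMa and Wt1 no longer passed. Same-numbered libraries did not deviate together (correlation -0.0744 over 9364 genes), so the numbers were not taken as pairs. Groups of 2 libraries limit every test, and Psmb8 and Psmb9 had under 100 counts in each library.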

Other observations

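Class II presentation genes were scarce. Of 10 such genes 4 were listed, and Cd74, Ciita and H2-Aa were not among them. H2-Ab1 had 28 and 49 counts with shNT and 43 and 65 with shNr4a3, H2-Eb1 had 40 and 75 against 52 and 49, and Ctss, cathepsin S, had 18 and 14 against 6 and 6; none passed. H2-DMa, a class II peptide exchange factor, had a log2 fold change of -0.49 and an edgeR adjusted p of 0.0492. The minimum log2 fold of 0.5 aside, its call was lost with library totals, DESeq2, limma-voom and the replicate block. It was also lost without shNT replicate 1 (-0.19), without shNr4a3 replicate 1 (-0.46) and without shNr4a3 replicate 2 (-0.51).

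The gene lengths implied by the deposited counts and FPKM values did not follow annotated exon lengths. Over 12689 genes, 96.2% of those listed, the Spearman correlation was -0.006, and 8.39% agreed within 10%. Mean counts correlated with exon length at 0.233 and with the implied length at 0.018; genes are not independent replicates. B2m, for example, had an implied length of 6505 bases and 860 exon bases. The deposited FPKM values were therefore not used to compare levels between genes, and the cause was not tested.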
